A study of Rattus norvegicus with 23 samples.

Results

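Krt7, Krt8, Krt18 and Krt19 encode the keratins of simple, single-layered epithelia. They were 4 of the 19249 genes in a table of rat lung expression, and all 4 passed the filter on low values. The genes were selected from their measured levels across the exposure groups, and their rows found by symbol. Group differences of the 4 keratins are given as a description, with no test. Lung pieces came from male rats that breathed filtered air (7 libraries), low smoke (8 libraries) or high smoke (7 libraries) from burning eucalyptus. The low smoke chamber was set to a carbon monoxide target of 10 ppm and the high smoke chamber to 20 ppm. Whole-body exposure ran for 4 days, stopped for 3 days and ran for 3 more days. Strain and age are not given in the sources used here, and each library came from a separately numbered rat.

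Keratins are intermediate filament proteins that assemble only as pairs of a type II chain, such as Krt7 or Krt8, and a type I chain, such as Krt18 or Krt19. Krt8 and Krt18 form the basic pair of simple epithelia, while Krt7 and Krt19 are added in ducts, airways, alveolar epithelium and mesothelium. In mouse lung, high Krt8 marks a transitional state of alveolar cells that appears after injury, on the way from type 2 to type 1 cells.

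Values are normalized counts per gene, from libraries of 8484445 to 12055982 read equivalents. Krt18, the lowest of the 4 in reads, rested on 142 to 320.0 read equivalents per library. The labelled tissue was checked on markers of lung epithelium: Sftpc, the type 2 cell surfactant protein, had 53126 or more normalized counts in every air library, and Ager, a type 1 cell receptor, 7763 or more. The first principal component of all tested genes carried 19.7% of the variance and set 3 high smoke libraries apart: replicates 1, 3 and 7 scored 51.5, 41.7 and 36.5, against 0.30 to 8.77 for the other 4 high smoke libraries. Differences of the keratins between high smoke and air are therefore given with and without these 3 libraries.

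The 4 keratins differed between high smoke and air by unequal amounts. On the log2(normalized count + 1) scale Krt8 was 2.12-fold and Krt7 1.59-fold higher in high smoke than in air, with every high smoke library above every air library. Such a gap between the groups was found in 1.3% of the 14414 genes tested, a share from which nothing is read, since the keratins were chosen with this contrast known. Krt19 was 1.40-fold higher with overlapping groups, and Krt18 was 1.11-fold higher, less than its spread. In bulk lung, a change in the number of cells that express a keratin and a change in its RNA per cell cannot be told apart.

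**Figure D1:**
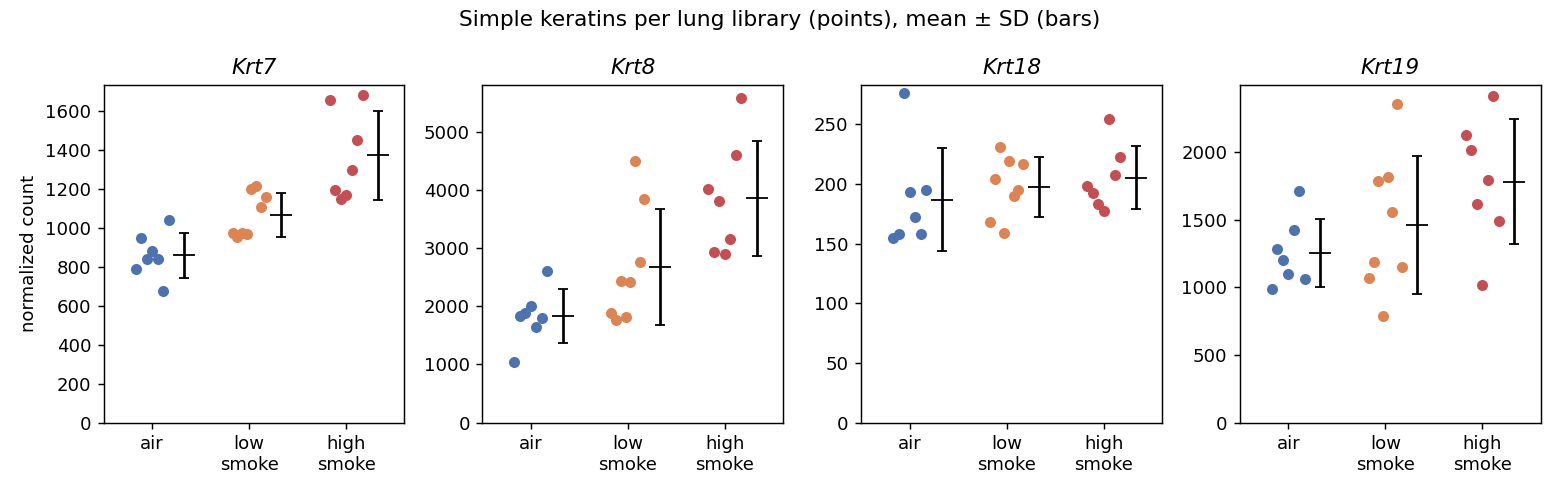
Normalized count of each keratin (y axes, starting at 0) in each lung library (points), by exposure group, with the mean and SD of 7 air, 8 low smoke and 7 high smoke libraries (bars). The high smoke points of Krt7 and Krt8 all lie above the highest air points, 1039 and 2606, while the Krt18 points of the 3 groups cover each other.

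Krt8, the type II partner of Krt18, lies at chr7:143596511-143603804 on the minus strand of rn6. Its lowest, median and highest normalized counts were 1037, 1835 and 2606 among air libraries, 1758, 2431 and 4499 among low smoke libraries and 2898, 3809 and 5584 among high smoke libraries. The 7 air rats averaged 1829 ± 466, the 8 low smoke rats 2681 ± 1003 and the 7 high smoke rats 3860.0 ± 986 (SD). No high smoke library overlapped the air group, while low smoke ran from inside the air range to inside the high smoke range. On the log2(normalized count + 1) scale Krt8 differed by 1.08 (SE 0.20) between high smoke and air, by 0.52 (SE 0.20) between low smoke and air, and by 0.57 (SE 0.20) between high and low smoke. Low smoke was above every air library in 3 of 8 rats, and high smoke above every low smoke library in 2 of 7.

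Krt7, a type II keratin of glandular and airway epithelium, lies at chr7:143059764-143075908 on the plus strand of rn6. Its lowest, median and highest normalized counts were 677, 841 and 1039 among air libraries, 955, 1039.7 and 1215 among low smoke libraries and 1151, 1299.6 and 1685 among high smoke libraries. The 7 air rats averaged 859 ± 115, the 8 low smoke rats 1069 ± 113 and the 7 high smoke rats 1373 ± 228 (SD). Krt7 had the narrowest spread in air and low smoke among the 4, with a coefficient of variation of 13.4% in air and 10.6% in low smoke. Its log2 difference was 0.67 (SE 0.10) between high smoke and air, 0.32 (SE 0.10) between low smoke and air, and 0.35 (SE 0.10) between high and low smoke. All 7 high smoke libraries lay above all air libraries and 4 of the 7 above all low smoke libraries, and 4 of 8 low smoke libraries lay above all air libraries.

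Krt18, the type I partner of Krt8, lies at chr7:143629455-143633132 on the plus strand of rn6. Its lowest, median and highest normalized counts were 155, 173 and 276 among air libraries, 159, 199.7 and 231 among low smoke libraries and 177, 199 and 254 among high smoke libraries. The 7 air rats averaged 187 ± 42.9, the 8 low smoke rats 198 ± 25.1 and the 7 high smoke rats 205 ± 26.4 (SD). The groups overlapped throughout, and no smoke library of either kind exceeded the highest air library, replicate 3. The log2 difference between high smoke and air was 0.15 (SE 0.12, 95% interval -0.09 to 0.39), that between low smoke and air 0.10 (SE 0.11) and that between high and low smoke 0.05 (SE 0.11). RefSeq lists 7 copies of Krt18 in GRCr8, of which 6 are pseudogenes, and 1 pseudogene of Krt8. None had a row under its RefSeq symbol in the table, and reads shared with these copies make the Krt18 and Krt8 values uncertain.

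Krt8 and Krt18 are neighbours in the genome. In rn6 their loci are 25.65 kb apart on opposite strands, with no other row of the table between them. RefSeq promoter sequence was found for 2 of the 4 keratins, Krt8 and Krt18, and is shown because Krt8 had the largest and Krt18 the smallest difference between high smoke and air. Each window is the 250 bases before the annotated start in GRCr8, 5′ to 3′ on the gene's own strand, at chr7:135010340-135010589 (minus) for Krt8 and chr7:135035918-135036167 (plus) for Krt18. Capitals mark the TATAAA matches on both strands in Krt8 and the GGGCGG match in Krt18.
Krt8: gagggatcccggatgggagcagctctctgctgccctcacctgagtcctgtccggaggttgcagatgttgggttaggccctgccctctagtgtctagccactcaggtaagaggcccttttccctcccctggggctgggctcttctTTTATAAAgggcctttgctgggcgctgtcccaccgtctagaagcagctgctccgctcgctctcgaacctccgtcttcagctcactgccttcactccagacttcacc
Krt18: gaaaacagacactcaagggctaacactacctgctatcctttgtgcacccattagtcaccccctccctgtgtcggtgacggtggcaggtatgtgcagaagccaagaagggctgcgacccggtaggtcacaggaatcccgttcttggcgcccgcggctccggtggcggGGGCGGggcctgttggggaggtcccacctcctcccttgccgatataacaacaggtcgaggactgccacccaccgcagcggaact

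The Krt8 window held TATAAA on the strand opposite to the gene and on the gene's own strand, in matches that overlap each other. In that order they begin 106 and 104 bases before the start. The Krt18 window held no TATAAA, and held a GC box, GGGCGG, 84 bases before the start. Of 33469 promoter windows of this length, 12.9% held TATAAA and 30.5% held GGGCGG on either strand. Both windows were also searched on both strands for the AP-1 motif TGANTCA (in 6.34% of windows), CCAAT (34.0%), the antioxidant response element TGACNNNGC (10.1%) and the xenobiotic response element GCGTG (25.9%), and neither window held these letters. G and C made up 60.0% of the Krt8 window and 62.0% of the Krt18 window. A match in these letters is a description of the sequence and not a site shown to be bound.

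Krt19, the smallest type I keratin and one that lacks the tail domain, lies at chr10:88055841-88060562 on the minus strand of rn6. Its lowest, median and highest normalized counts were 988, 1202 and 1713 among air libraries, 789, 1371 and 2357 among low smoke libraries and 1019, 1789 and 2413 among high smoke libraries. The 7 air rats averaged 1253 ± 249.9, the 8 low smoke rats 1463 ± 510.0 and the 7 high smoke rats 1781 ± 459 (SD). Here 4 of 7 high smoke libraries lay above every air library, and high smoke replicate 4 lay near the lowest air value. The log2 difference was 0.48 (SE 0.20) between high smoke and air, 0.17 (SE 0.19) between low smoke and air, and 0.32 (SE 0.19) between high and low smoke. The Krt19 locus lies inside the span given for Krt14, chr10:88055823-88122234, so reads of these 2 rows could be split. Krt14, a type I keratin of basal cells, averaged 9.57 normalized counts over all libraries and was below the filter.

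**Figure D2:**
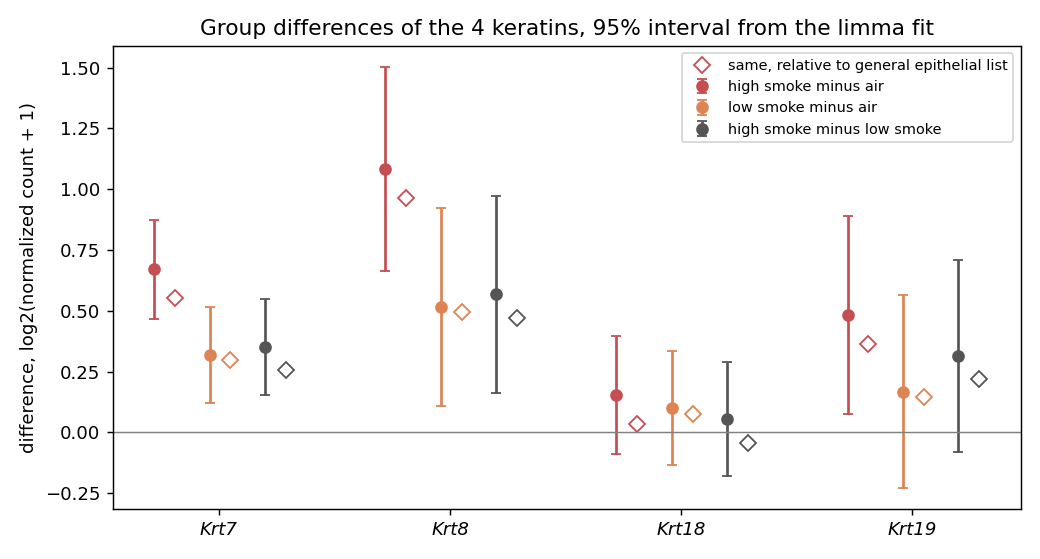
Group difference of each keratin on the log2(normalized count + 1) scale (y axis) with its 95% interval from the limma fit (filled points and bars), and the same difference relative to a list of 18 general epithelial genes (open diamonds). Krt8 and Krt7 show the largest differences between high smoke and air, 1.08 and 0.67, and the Krt18 intervals all include 0.

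Read against all genes, Krt8 had a larger difference between high smoke and air than 99.3% of the 14414 genes tested, Krt7 than 97.7%, Krt19 than 94.5% and Krt18 than 71.7%. These places are a description too. Without high smoke replicates 1, 3 and 7 they were 99.4%, 98.0%, 97.0% and 79.6%. The comparisons of either smoke group with air share the air libraries.

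Leaving out high smoke replicates 1, 3 and 7 left 4 high smoke libraries, with Krt7 at 1171 to 1453 and Krt8 at 2898 to 4607 normalized counts, all above the air maxima of 1039 and 2606. The log2 difference between high smoke and air was then 0.58 (SE 0.10) for Krt7 and 0.91 (SE 0.24) for Krt8. Krt18 and Krt19 differed by 0.17 (SE 0.14) and 0.48 (SE 0.24). In high smoke against low smoke the Krt7 difference was 0.26 (SE 0.10) and the Krt8 difference 0.40 (SE 0.23) without these libraries. Leaving out 1 library at a time, the difference between high smoke and air ran from 0.61 to 0.72 for Krt7, 0.95 to 1.18 for Krt8, 0.10 to 0.25 for Krt18 and 0.40 to 0.61 for Krt19.

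Because keratins pair type II with type I chains, their RNA ratios were taken within each library. The Krt8 to Krt18 ratio averaged 9.63 for air, 12.9 for low smoke and 18.4 for high smoke (geometric means of normalized count + 1, not corrected for transcript length). On the log2 scale the 7 air rats were at 3.27 ± 0.38, the 8 low smoke rats at 3.68 ± 0.47 and the 7 high smoke rats at 4.20 ± 0.35 (SD). The log2 ratio was 0.93 (SE 0.20) higher in high smoke than in air, and 6 of 7 high smoke libraries lay above every air library. Without high smoke replicates 1, 3 and 7 it was 0.74 (SE 0.23) higher, with 3 of 4 above every air library. Of its parts, Krt8 differed by 1.08 and Krt18 by 0.15.

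The other type II to type I ratios moved less. The log2 ratio of Krt7 to Krt18 was 2.73 ± 0.23 in high smoke and 2.21 ± 0.31 in air (SD, n = 7 each), a difference of 0.52 (SE 0.15), with 6 of 7 high smoke libraries above every air library. Krt8 over Krt19 differed by 0.60 (SE 0.24), with 2 of 7 high smoke libraries above every air library. Krt7 over Krt19 differed by 0.19 (SE 0.22), less than its spread, with 2 of 7 above every air library. Between chains of the same type, Krt8 over Krt7 differed by 0.41 (SE 0.15) and Krt19 over Krt18 by 0.33 (SE 0.22). Without high smoke replicates 1, 3 and 7 the differences were 0.41 for Krt7 over Krt18, 0.43 for Krt8 over Krt19, 0.10 for Krt7 over Krt19, 0.33 for Krt8 over Krt7 and 0.32 for Krt19 over Krt18.

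**Figure D3:**
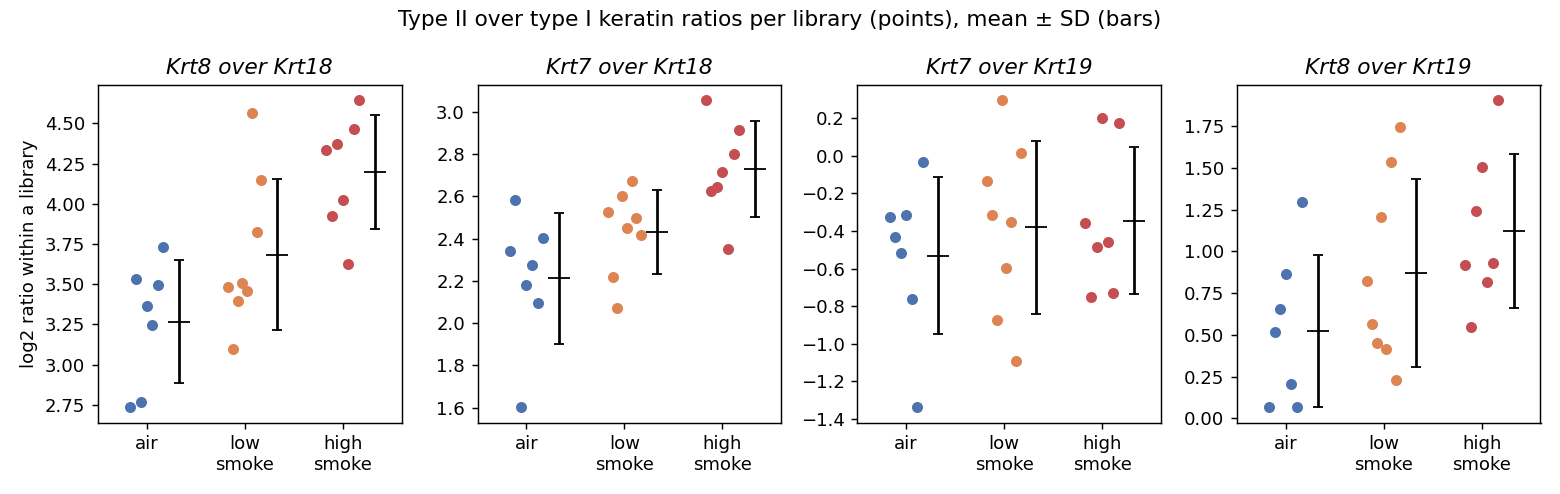
Log2 ratio of a type II to a type I keratin within each library (y axes, which do not start at 0), by exposure group, with mean and SD (bars). The Krt8 to Krt18 ratio has means of 3.27 for air, 3.68 for low smoke and 4.20 for high smoke, while in the Krt7 to Krt19 ratio 2 of 7 high smoke libraries lie above every air library.

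Within the groups, Krt7 and Krt8 varied together from rat to rat. After subtracting each group's mean from the log2 level, Pearson's r between Krt7 and Krt8 was 0.69 and Spearman's rho 0.70 over 22 libraries (two-sided permutation test within groups, p = 0.00046 for r and 0.00065 for rho). Adjusted over the 6 pairs of keratins these were 0.00276 and 0.0039, and r was 0.73 without air replicate 6 and high smoke replicate 7, the libraries farthest from the median of Krt7. The relation had the same sign in each group, with r of 0.54 among air, 0.82 among low smoke and 0.79 among high smoke libraries. Without high smoke replicates 1, 3 and 7 it was 0.70. In the air and low smoke libraries alone it was 0.67, with an adjusted permutation p of 0.0505. The low smoke libraries were uneven: Krt7 was 955 to 973 in replicates 1 to 4 and 1106 to 1215 in replicates 5 to 8, and Krt8 was 1758 to 2438 and 2425 to 4499 in the same libraries. The permutations treat the libraries of a group as exchangeable, and the part of this unevenness in r was not tested.

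The other pairs, including those that pair as protein, had lower r. Krt8 and Krt18 had a within-group r of 0.34 and a rho of 0.44, Krt7 and Krt19 an r of 0.18 and a rho of 0.20, and Krt8 and Krt19 an r of 0.30 and a rho of 0.33. None of the 5 other pairs passed, with adjusted permutation p of 0.285 to 0.425 for r. The r of Krt7 and Krt19 was 0.45 without the same 2 libraries, so it depends on them. Whether the pairs differ from each other in r was not tested.

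**Figure D4:**
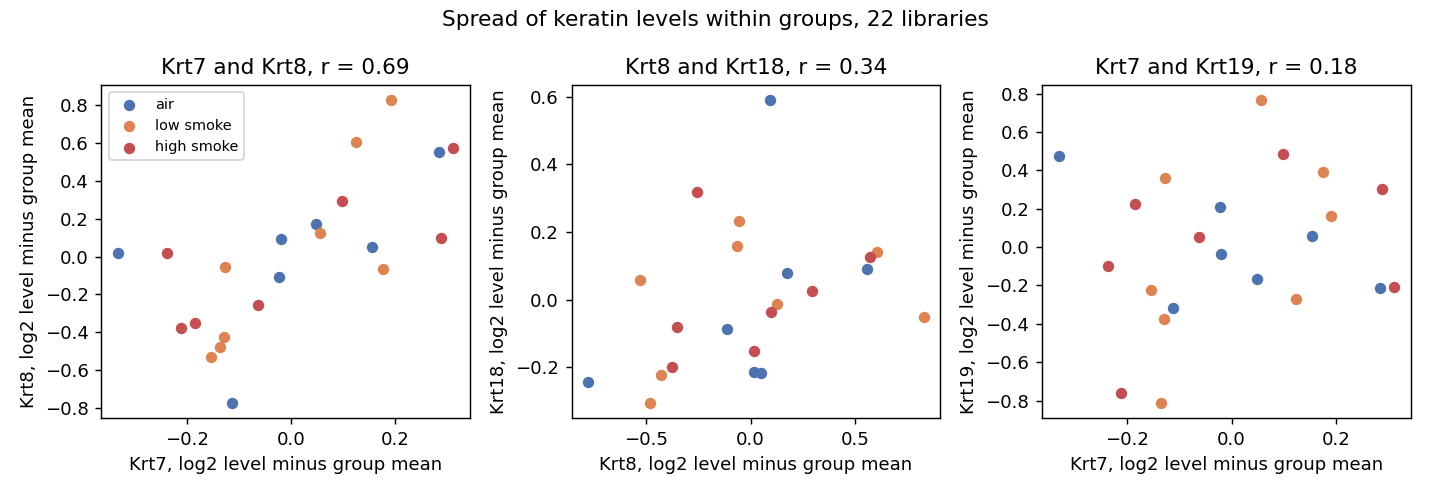
Log2 level of 1 keratin against another after subtracting the mean of each exposure group (both axes), with 1 point per library and r over 22 libraries. Krt7 and Krt8 follow each other (r 0.69), while Krt8 and Krt18 (0.34) and Krt7 and Krt19 (0.18) spread more widely.

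Over all 22 libraries without centring, which keeps the group differences, genes like each keratin in log2 level were found by Pearson's r, as a description. Krt8 was most like Irf3, an interferon-pathway transcription factor (r 0.96, and 0.90 within groups), and also like Atp6v0e1, a vacuolar ATPase subunit (0.86). Krt7 was most like Tmsb4x, the actin-binding thymosin beta 4 (0.90, and 0.78 within groups), and Nkain4 (0.89, and 0.82 within groups). Krt18 was most like Trim3, a ubiquitin ligase (0.80), Rabggta, a subunit of Rab geranylgeranyl transferase (0.79), and Ndufa9, a complex I subunit (0.78). Krt19 was most like Man2b2, a mannosidase (0.82), Npdc1 (0.79) and Wsb2 (0.79). Between the keratins themselves r was 0.87 for Krt7 and Krt8 and 0.33 to 0.51 for the other pairs. Within groups the r of Krt7 and Krt8, 0.69, was below those given here for Irf3, Tmsb4x and Nkain4, genes picked for high r.

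Relative to general epithelial genes the keratins kept their order. A list of 18 such genes, among them Epcam and Cdh1, had a mean log2 level of 8.54 ± 0.09 in high smoke and 8.43 ± 0.13 in air (SD, n = 7 each). Taken relative to that mean in the same library, Krt8 was 0.97 (SE 0.20) and Krt7 0.55 (SE 0.13) higher on the log2 scale in high smoke than in air, each with 7 of 7 high smoke libraries above every air library. Krt19 was 0.37 (SE 0.20) and Krt18 0.04 (SE 0.12) higher. Without high smoke replicates 1, 3 and 7 these were 0.80 for Krt8, 0.47 for Krt7, 0.38 for Krt19 and 0.06 for Krt18. Of the 18 genes, 2 rose and 2 fell in high smoke against air (limma, Benjamini-Hochberg adjusted p below 0.05), beside 9.21% of all genes that rose and 7.05% that fell, with a median log2 difference of 0.17 beside -0.002 for all genes. Cdh1, the epithelial cadherin, fell by 0.41 (SE 0.11, limma adjusted p = 0.0101), Lad1, an anchoring filament protein, rose by 0.42 (SE 0.12, limma adjusted p = 0.0183), and Epcam, an epithelial adhesion molecule, differed by 0.12 (SE 0.08) without passing. None of the 4 keratins is in this list.

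Other keratins were looked at as a family, by a list that did not take in all 23 with a row in the table. Of 30 keratins and keratin-like genes looked for, mostly of skin, hair and stratified epithelia, 20 had a row and 9 passed the filter. Of these 9, 2 rose and none fell in high smoke against air, with a median log2 difference of 0.14. Over all genes 9.21% rose. Krt222, a keratin-like gene, averaged 40.7 ± 12.1 normalized counts in high smoke and 20.5 ± 10.2 in air (SD, n = 7 each), a log2 difference of 1.03 (SE 0.29, limma adjusted p = 0.0163). Krt10, the type I keratin of the upper epidermis, averaged 46.4 ± 12.7 in high smoke and 29.1 ± 13.7 in air (SD, n = 7 each), a log2 difference of 0.74 (SE 0.26, limma adjusted p = 0.0496) that did not pass in 25 of 32 alternative settings. Krt2, Krt15, Krt75, Krt76, Krt77, Krt79 and Krt80 lay between -0.20 and 0.27 and did not pass. Krt5 and Krt17, keratins of basal cells, averaged 0.80 and 1.09 normalized counts over all libraries, and no basal marker passed in either direction of 3 tested.

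Anchoring partners of keratins and other intermediate filament genes mostly stayed below the threshold in high smoke against air. So did most genes tested, with 9.21% that rose and 7.05% that fell. Of 17 genes that anchor keratin at desmosomes and hemidesmosomes, none passed in limma (median log2 difference 0.02), and Dsp, which encodes desmoplakin, fell by 0.28 in high smoke against low smoke (SE 0.09, limma adjusted p = 0.0483), a call lost in 18 of 33 alternative settings. In that comparison 3.8% of all genes rose and 2.98% fell. Of 9 other intermediate filament genes, 1 rose and none fell in high smoke against air, Vim, the mesenchymal filament vimentin, by 0.33 (SE 0.11, limma adjusted p = 0.0489), which did not pass in 24 of 33 alternative settings.

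Markers of lung cell types that carry keratins were set beside these results. Alveolar type 1 markers gave 4 of 20 that rose and none that fell in high smoke against air, led by Scnn1g, a sodium channel subunit (0.57), Ager (0.69) and Igfbp2, an insulin-like growth factor binding protein (0.78). The median of the list was 0.03, with 10 of 20 genes higher in high smoke than in air. Spock2, a matrix proteoglycan, was at -0.38 without passing. Type 2 markers gave 3 of 17 that rose and 1 that fell, with Napsa, a protease of surfactant processing, 0.82 (SE 0.14, limma adjusted p = 0.000799) and Sftpc 0.69 higher, while Lpcat1, a phospholipid-remodelling enzyme, fell by 0.22. The median of this list was 0.04. These counts stand beside 9.21% of all genes that rose and 7.05% that fell. Summed type 2 marker levels were 337049 to 409882 in high smoke and 278601 to 340168 in air, and summed type 1 levels 176662 to 195251 in high smoke and 164612 to 201228 in air. Such sums weigh abundant genes most, and Sftpc alone averaged 106596 in high smoke and 65040 in air. Mesothelial markers gave 0 of 9 that passed, with a median of -0.07 and summed levels of 1489 to 3964 in high smoke and 1166 to 3770 in air. The part of these cell types in the keratin differences was not tested.

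A list of transitional alveolar cell markers, known from mouse, gave 3 of 20 tested that rose and 2 that fell in high smoke against air. The median log2 difference was -0.01. Beside these counts, 9.21% of all genes rose and 7.05% fell. S100a6, a calcium-binding protein, was 222960 ± 67824 normalized counts in high smoke and 95278 ± 34678 in air (SD, n = 7 each), a log2 difference of 1.23 (SE 0.22, limma adjusted p = 0.000952). Nupr1, a stress-response regulator, fell by 0.91 (SE 0.27, limma adjusted p = 0.0223) and Itgb6, an integrin subunit, by 0.30 (SE 0.09, limma adjusted p = 0.0307). Cldn4, a tight junction protein of those cells, differed by 0.19 (SE 0.24) and Sfn, a 14-3-3 protein, by -0.79 (SE 0.38), neither passing, and each also stands in another list. Krt8 itself, which marks the state in mouse, was not in the list.

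The remaining lists are given as counts in high smoke against air, where 9.21% of all genes rose and 7.05% fell. Genes that regulate keratins had 1 of 19 that rose and none that fell. Without high smoke replicates 1, 3 and 7 this list also had 1 that rose. Club and secretory markers had 1 of 10 that rose and none that fell, ciliated markers 1 that rose and 1 that fell of 12, endothelial markers 2 and 1 of 13, fibroblast markers 2 and 1 of 9, macrophage markers none and 1 of 8, and cardiac markers none of 9. Mitochondrial transcripts, listed with RNA quality in mind, had none that rose and 5 of 13 that fell, beside 7.05% of all genes. Their median was -0.31, and their summed levels were 79204 to 156082 in high smoke and 113946 to 153806 in air. Whether these transcripts follow RNA quality here was not tested, nor was the part of RNA quality in the keratin differences. No list had a member that passed in low smoke against air, where limma called 0% of all genes, gave 923 genes an unadjusted p below 0.05 and had a smallest adjusted p of 0.451. Without high smoke replicates 1, 3 and 7 the mitochondrial median was -0.18 and none of those 13 transcripts passed. In that fit Napsa was the 1 gene among the list members named above that still passed in high smoke against air.

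**Figure D5:**
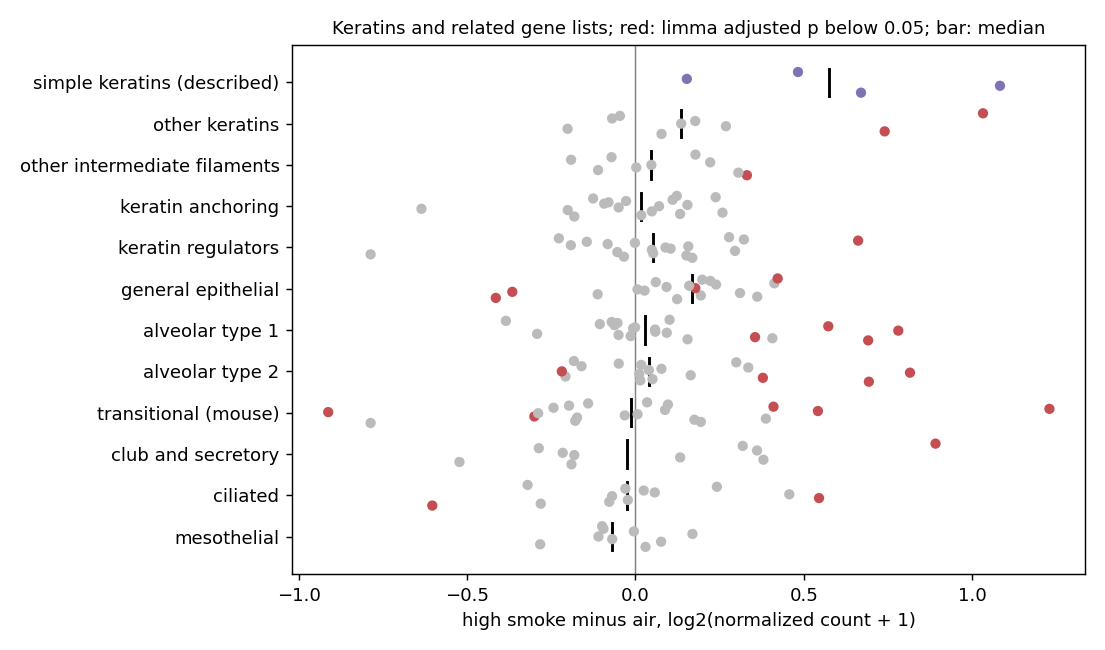
Log2 difference between high smoke and air (x axis) of each tested gene, by list down the page, with genes that passed the limma threshold in red, genes that did not in grey, the 4 described keratins in purple and a black bar at each list's median. The keratin median lies at 0.58, while the medians of the other lists drawn here lie between -0.07 and 0.17.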

How the data were processed

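RNA came from about 35 mg of frozen lung whose RNA integrity number was 9 or more, per the labels' protocols, and 1 µg went into PrepX libraries read on a NextSeq 500. Reads were aligned with STAR 2.7.3a to rn6 and handled in Partek with DESeq2, per the submitters' processing notes. The deposited unit is a signal: gene counts the authors divided by a size factor per library. Between 80.6% and 82.8% of values under 200 reads lay within 0.02 of a whole number of reads, so whole reads were not recovered and no count test was run. Of 23 labelled samples, 1 high smoke sample, without a column, was not analysed here. Its label marks it as removed for quality. The labels' protocol speaks of a removed air sample, and 7 air samples are labelled of 8 rats planned per group. These statements can therefore concern different rats. Groups follow the sample labels.

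Values were set to log2(value + 1), which understates changes of genes with low values. Genes with a mean of at least 10 were tested (14414 of 19249), in 1 limma 3.58.1 fit over the 3 groups in R 4.3.3 (trend on, robust off), two-sided, with Benjamini-Hochberg adjustment. Standard errors and intervals of the keratin levels come from that fit; those of ratios and of levels relative to the epithelial list come from the spread of the libraries of each group. The fit was also run on simulated data with independent noise for each gene, which cannot show how it handles libraries set apart together. Correlations used 100000 permutations within groups. Promoter sequences come from RefSeq (GRCr8). The members and lists (17 lists, 262 genes, of which 229 matched by symbol, 4 by an older symbol and 29 not at all) were chosen with earlier results of these data known. From each list and contrast the 3 called genes with the smallest p could be named, with all tested members of the other keratins and the 3 genes most like each keratin. Defining markers, the first 3 genes of a cell type list, could be named too. Krt14, Krt17 and Lpcat1 were chosen after their values were seen. A few genes that this choice takes in are not reported here. The alternatives were other pseudocounts, filters and scalings, array weights, robust shrinkage, a fit of the 2 groups alone, levels relative to the epithelial list and leaving out libraries. Ratios, relative levels, places among all genes and correlations without high smoke replicates 1, 3 and 7 were added after seeing the data. P-values set group differences against the spread between rats within this 1 experiment. Where rats of a group shared a chamber, effects of exposure and of chamber cannot be told apart.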

Additional observations from a re-analysis of the deposited data

Results flagged for a closer look

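Of 30 groups of libraries checked for a value far from the others, over the levels and ratios of the keratins, 1 stood out. Krt18 was 276 normalized counts in air replicate 3, against 195 in the next highest air library, a gap of 0.667 of the range of the 7 air libraries. About 1 in 20 such groups stands out by chance. The difference of Krt18 between high smoke and air was 0.25 on the log2 scale without this library, the highest of the leave-one-out values, and 0.15 with it.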

How the results depend on the processing

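No paired analysis was possible because replicate numbers pair no rats across groups. The 12 keratin differences moved by less than 1 residual SD in every alternative run, 34 settings each, and kept their sign except Krt18 in high smoke against low smoke, which was -0.04 relative to the epithelial list. The number of genes called in high smoke against air was 2343, and was 1351 in a fit of these 2 groups alone, 124 without high smoke replicates 1, 3 and 7, and 1453 to 2863 without 1 library at a time (1453, 1461 and 1550 without high smoke replicates 1, 3 and 7). In high smoke against low smoke it was 977, and 0 without these 3 libraries and 29 to 1651 without 1 library. The low counts came without high smoke replicates 7, 1 and 3 (29, 35 and 51) and low smoke replicates 2, 1, 4 and 3 (296, 316, 399 and 550), the high ones without high smoke replicates 4 and 6 (1651 and 1575). In low smoke against air it was 0, and 1 without these 3 libraries and 0 to 2 without 1 library, 2 of them without air replicate 5. Scaling to the same total turned the split in high smoke against air to 894 that rose and 1797 that fell, against 1327 and 1016. In high smoke against low smoke it gave 414 and 633, against 548 and 429. All 4 keratins kept their direction under it, and the median of the anchoring genes was -0.06, against 0.02. The r of Krt7 and Krt8 was 0.67 in air and low smoke alone, where its adjusted p was 0.0505. The causes were not tested. Of 1448 comparisons for the 44 list results, 1156 kept their call, 292 lost it and 0 reversed. Depth limits Krt18 most.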

Other observations

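The low smoke libraries were uneven in Krt7 and along the first principal component, given here as values. Krt7 in low smoke replicates 1 to 8 was 973, 955, 973, 968, 1202, 1215, 1106 and 1159 normalized counts. The scores of the same libraries were -12.7, -12.6, -12.0, -10.3, -2.33, -3.40, -1.81 and -2.18. No low smoke library lay between 973 and 1106 in Krt7 or between -10.3 and -3.40 in the score. Krt8 in these libraries was 1888, 1758, 2438, 1818, 2425, 4499, 2768 and 3855 normalized counts. Among the air libraries, replicate 7 had the highest Krt7 and Krt8, 1039 and 2606, and the highest score, -0.29. The labels name no batch, and this was seen in the data.

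Cardiac muscle markers, which in lung mark pulmonary vein muscle, varied widely within each group. Their summed level was 138 to 1673 normalized counts in air, 164 to 1573 in low smoke and 181 to 1398 in high smoke.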
